A study of Mus musculus with 26 samples.

Results

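The 10 genes described here are those through which T cells hold, release and sense the cytokine TGF-beta: Lrrc32, Itgb8, Itgav, Tgfb1, Tgfb3, Tgfbr1, Tgfbr2, Tgfbr3, Smad3 and Smad7. They were taken by symbol from a table of read counts for 24411 genes, and all 10 were found there and all 10 passed the filter on low counts. The study sequenced poly(A) RNA of CD4+ T cells that were sorted from C57BL6/J mice (spleen and lymph nodes), in 26 libraries that form 13 groups of 2 in 5 sorting sets. The reporters mark Foxp3, the X-linked transcription factor that defines regulatory T cells (Treg), and the mutations lie in Foxp3 itself or in Batf, which codes for an AP-1 family transcription factor of activated lymphocytes. Mouse ages are not stated in the labels, and nothing says that the libraries of a group came from separate animals, so p-values measure only the spread between these libraries.

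In the Foxp3KO set, Foxp3KO Treg had the genotype Foxp3fs101-IRES-hCD2/Foxp3-IRES-GFP and its control carried Foxp3WT-IRES-hCD2 in place of the mutant allele. In the Foxp3R397W set, Foxp3R397W Treg were Foxp3R397W-IRES-hCD2/Foxp3-IRES-GFP, against controls of the same Foxp3WT-IRES-hCD2 design. All 4 of these groups were gated as CD4+hCD2+GFP-, so every mouse also had a GFP-tagged Foxp3 allele whose cells were gated out. In the germline set, BATFKO Treg (Foxp3-IRES-hCD2.Batf-/-) and WT Treg (Foxp3-IRES-hCD2) were CD4+hCD2+, and Tconv were hCD2- cells of Foxp3-IRES-hCD2 mice. The labels call the Tconv libraries Treg by cell type but conventional by title, and their Foxp3 level averaged 3.32 ± 1.06 CPM (SD, n = 2), against 455 ± 71.2 CPM in WT Treg. In the YFP set, BATFcKO Treg YFP and WT Treg YFP both carried the Foxp3 alleles Foxp3-IRES-YFPCre and Foxp3-IRES-hCD2, the BATFcKO mice also Batfflox/flox, and both were CD4+YFP+hCD2-, and the Foxp3 locus drives the Cre. In the sorted set, all from Foxp3-IRES-hCD2 mice, eTreg (hCD2+) and Teff (hCD2-) were CCR7loCD62Llo, and cTreg (hCD2+) and Tnaive (hCD2-) were CCR7hiCD62LhiCD44lo.

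TGF-beta is secreted in a latent form, folded into its own propeptide. Lrrc32 encodes GARP, which tethers the latent complex to the surface of Treg, and the integrin made of the Itgav and Itgb8 chains pulls on the propeptide so that active cytokine is freed. Active TGF-beta binds the receptor kinase Tgfbr2, which recruits and activates the kinase Tgfbr1; betaglycan, the product of Tgfbr3, is a co-receptor. Smad3 carries the signal to the nucleus, and Smad7 is an inhibitory Smad that TGF-beta itself induces. The pathway limits T cell activation, and supports Foxp3 in induced Treg.

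Levels are given as CPM (counts scaled to a common library size) on TMM-scaled library sizes, and every fold change and adjusted p-value comes from edgeR's quasi-likelihood test over 12227 genes, called below an adjusted p of 0.05. Library totals lay between 5615929 and 7300917 counts in the Foxp3R397W, germline and YFP sets, between 9774025 and 10641332 in the sorted set and between 26321134 and 34613707 in the Foxp3KO set. The germline libraries numbered 1 and 2 stood apart: their counts differed by 23.3 to 31.9 times the sampling variance, against 3.12 to 8.26 in the pairs of the other 10 groups. Batf averaged 7.02 ± 0.273 CPM in BATFKO Treg and 64.5 ± 26.1 CPM in WT Treg, and 17.7 ± 2.52 CPM in BATFcKO Treg YFP and 63.2 ± 6.64 CPM in WT Treg YFP. Foxp3 mRNA averaged 111 ± 3.05 CPM in Foxp3KO Treg and 337 ± 16.1 CPM in their controls, and 351 ± 11.7 CPM in Foxp3R397W Treg and 416 ± 51.6 CPM in theirs (n = 2 each), where a point mutation is not read by a level. In these bulk libraries, fewer cells expressing a gene and less RNA per cell cannot be told apart.

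Per kilobase of annotated exon, Lrrc32 was the highest of the 10 genes in WT Treg (117 ± 32.3 CPM per kb) and in cTreg (77.2 ± 2.39), with Smad7 next to it at 116 ± 27.0 CPM per kb in WT Treg, within the spread, and 72.5 ± 0.908 in cTreg. In eTreg, Tgfb1 (48.7 ± 1.60 CPM per kb), Lrrc32 (43.5 ± 6.997) and Tgfbr2 (40.9 ± 0.702) led the list. In Tnaive the order was led by Tgfbr2 (85.2 ± 6.29 CPM per kb) and Smad7 (82.7 ± 6.60), and Lrrc32 lay at 0.0869 ± 0.123. Tgfb3 was the lowest of the 10 in eTreg, cTreg and WT Treg, at 0.185 to 0.478 CPM per kb, while in Teff its level was 4.62 ± 1.59. Group means of Tgfb1 spanned a 1.48-fold range over the 13 groups and those of Smad3 a 1.62-fold range, against a 1400-fold range for Lrrc32.

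Promoters are shown for the receptor pair Tgfbr1 and Tgfbr2, whose levels differed in opposite directions between Treg and conventional cells. The promoter of Itgav, which like Tgfbr1 was higher in WT Treg than in Tconv, is shown too. Windows were taken from a RefSeq promoter table for 6 of the 10 genes, with Smad7 left out of the search. The 250 bases upstream of the start are printed for these 3 on the gene's own strand (build GRCm38.p6, 5′ to 3′), with the GC box GGGCGG in capitals on either strand. The Tgfbr1 window is chr4:47352972-47353221 on the plus strand, the upstream one of 2 annotated starts, the Itgav window is chr2:83724147-83724396 on the plus strand, and the Tgfbr2 window is chr9:116175364-116175613 on the minus strand.
Tgfbr1: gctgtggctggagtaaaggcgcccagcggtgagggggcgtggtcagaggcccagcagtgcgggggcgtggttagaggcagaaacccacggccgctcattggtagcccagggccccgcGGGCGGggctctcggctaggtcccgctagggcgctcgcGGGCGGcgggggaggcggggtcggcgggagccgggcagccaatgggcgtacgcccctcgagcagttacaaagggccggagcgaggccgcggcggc
Itgav: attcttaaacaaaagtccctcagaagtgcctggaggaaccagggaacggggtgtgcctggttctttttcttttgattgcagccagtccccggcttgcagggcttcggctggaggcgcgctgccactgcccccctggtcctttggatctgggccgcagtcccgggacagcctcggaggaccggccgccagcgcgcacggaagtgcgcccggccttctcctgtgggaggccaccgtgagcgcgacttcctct
Tgfbr2: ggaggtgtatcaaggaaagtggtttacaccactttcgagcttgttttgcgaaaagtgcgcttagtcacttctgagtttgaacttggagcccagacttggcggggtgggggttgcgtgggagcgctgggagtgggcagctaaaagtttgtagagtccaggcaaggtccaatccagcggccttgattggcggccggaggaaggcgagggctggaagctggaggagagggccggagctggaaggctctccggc
The Tgfbr1 window holds 2 GC boxes, starting 133 and 95 bases before the start, and the Itgav and Tgfbr2 windows hold 0; 32.7% of 32851 RefSeq windows of this length have at least 1. Of the other windows, that of Tgfb1 holds 5 GC boxes, that of Smad3 2, and that of Itgb8 and the downstream one of Tgfbr1 0 each. All 250 bases of the Itgb8 window lie within annotated exon of the gene itself. No relation of these letters to expression was tested. The GC content of the printed windows is 74.8% for Tgfbr1, 64.4% for Itgav and 58.4% for Tgfbr2. The AP-1 letters TGANTCA (in 6.75% of all windows), the forkhead letters TGTTTAC (in 3.17%) and the SMAD letters GTCTAGAC (in 0.167%), searched on both strands, are not in these 3 windows, which says nothing about binding elsewhere.

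Treg and conventional T cells differed in the anchor, the integrin and the receptors. Within each comparison below, the surface anchor, the activating integrin and the Tgfbr1 kinase were higher in Treg. The ligand-binding Tgfbr2 and the co-receptor Tgfbr3 were lower. Across states the integrin did not follow the lineage, although Teff and cTreg were not tested against each other. Itgb8 had 11.3 and 29.5 CPM in Teff, against 9.03 and 8.32 CPM in cTreg. Itgav had 106 and 113 CPM in Teff, against 78.8 and 68.7 CPM in cTreg. Of the 10 genes, 5 rose in WT Treg against Tconv (background 12.1% of tested genes) and 2 fell (6.68%); the figures were 4 (7.91%) and 2 (4.29%) in cTreg against Tnaive, and 6 (12.8%) and 3 (9.14%) in BATFKO Treg against Tconv, a comparison that shares its Tconv libraries with the first. Lrrc32 (ENSMUSG00000090958, chr7:98489283-98502181, mm10) had 441 and 655 CPM in WT Treg, against 0.177 and 0.803 CPM in Tconv, a log2 fold change of 10.05 ± 0.48 (SE; adjusted p = 4.6e-11). In the sorted set it had 370 and 354 CPM in cTreg, against 0.815 and 0 CPM in Tnaive (9.77 ± 0.46 on the log2 scale, adjusted p = 3.1e-11). The highest of the conventional libraries (Tconv, Teff and Tnaive) was at 1.28 CPM and the lowest of the Treg libraries with wild-type Foxp3 at 181 CPM. Lrrc32 is also a gene of platelets and megakaryocytes, whose 10 listed markers summed to 4.40 to 15.8 CPM in every library. The number of them with reads in both libraries of a group lay between 2 (as in WT Treg) and 6 (in Foxp3KO Treg). The part of such cells in the Lrrc32 values was not tested.

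The integrin chains followed. Itgb8 (chr12:119158022-119238802, minus strand) had 37.9 and 35.2 CPM in WT Treg, against 0.177 and 2.25 CPM in Tconv (log2 4.85 ± 0.53, adjusted p = 2.8e-06), and Tconv replicate 2 held nearly all of the Tconv signal. In cTreg it had 9.03 and 8.32 CPM, against 0 reads in both Tnaive libraries, so it was at least 57.4-fold higher in cTreg (the bound uses 3 counts over the group; adjusted p = 1.9e-05). Itgav (chr2:83724397-83806916) is used by several integrins and was present in all libraries, with 105 and 99.6 CPM in WT Treg, against 48.6 and 48.5 CPM in Tconv. Its rise was 1.07 ± 0.17 on the log2 scale in WT Treg (adjusted p = 1.0e-04) and 0.62 ± 0.16 in cTreg against Tnaive (adjusted p = 0.014), the second no longer called without cTreg replicate 1 or Tnaive replicate 2 (adjusted p = 0.15 and 0.19). The groups did not overlap in either comparison.

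The ligand Tgfb1 differed little between lineages. It had 200 and 262 CPM in WT Treg, against 144 and 188 CPM in Tconv, a log2 change of 0.47 ± 0.16 (adjusted p = 0.043) that was not called under DESeq2-type size factors (adjusted p = 0.063), without WT Treg replicate 2 (0.35) or without Tconv replicate 1 (0.28). Compared number by number, the difference was 0.47 in the libraries numbered 1 and 0.48 in those numbered 2. In cTreg against Tnaive it was 0.34 ± 0.16 (adjusted p = 0.20). Tgfb3 was low in both lineages here and not called, at -0.85 ± 0.45 (adjusted p = 0.22) for WT Treg over Tconv and -0.44 ± 0.55 (0.79) for cTreg over Tnaive.

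The receptors moved apart. Tgfbr1 had 193 and 122 CPM in WT Treg, against 81.4 and 51.4 CPM in Tconv (log2 1.25 ± 0.22, adjusted p = 0.00031), and 120 and 125 CPM in cTreg, against 58.6 and 53.9 CPM in Tnaive (1.12 ± 0.21, adjusted p = 0.00093). Tgfbr2 had 319 and 416 CPM in WT Treg, against 665 and 727 CPM in Tconv, which is lower by 0.92 ± 0.13 on the log2 scale (adjusted p = 4.2e-05). The WT Treg and Tconv libraries did not overlap for either kinase, nor did the cTreg and Tnaive libraries. In cTreg, Tgfbr2 had 420 and 410 CPM, against 734 and 661 CPM in Tnaive (log2 -0.75 ± 0.13, adjusted p = 0.00042). Tgfbr3, the co-receptor, showed the largest fall of the 10 genes in both comparisons: 33.0 and 35.2 CPM in WT Treg, against 192 and 184 CPM in Tconv (-2.46 ± 0.14, adjusted p = 3.7e-10), and 38.3 and 47.1 CPM in cTreg, against 202 and 195 CPM in Tnaive (-2.22 ± 0.13, adjusted p = 7.4e-10). When the germline libraries were fitted alone, the calls of Tgfbr1 and Tgfbr2 in WT Treg against Tconv were lost (adjusted p = 0.13 and 0.088) with values of 1.25 and -0.92.

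The signal transducer Smad3 did not pass the test between lineages, with log2 changes of -0.04 (95% interval -0.302 to 0.218) in WT Treg against Tconv and 0.07 (-0.183 to 0.327) in cTreg against Tnaive. Smad7 had 440 and 612 CPM in WT Treg, against 749 and 845 CPM in Tconv (-0.60 ± 0.23, adjusted p = 0.076, not called), and in cTreg against Tnaive its change was -0.19 ± 0.23 (0.77). In BATFKO Treg it had 326 and 577 CPM, against the same Tconv libraries (-0.82 ± 0.23, adjusted p = 0.014), a call lost without BATFKO Treg replicate 1 (0.17) or Tconv replicate 2 (0.068). The other genes in BATFKO Treg had values against Tconv of 10.01 for Lrrc32, 4.44 for Itgb8, 1.16 for Itgav, 0.51 for Tgfb1, 1.07 for Tgfbr1, -1.14 for Tgfbr2 and -3.16 for Tgfbr3, all called, and Tgfb3 was called too, at 1.44 ± 0.36 (adjusted p = 0.0065, but 0.073 without Tconv replicate 1). The Tgfb1 call was lost without BATFKO Treg replicate 2 (adjusted p = 0.42) or Tconv replicate 1 (0.22), and fitted on these 2 groups alone only 3 of the 9 calls passed (Lrrc32, Itgb8 and Tgfbr3).

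**Figure D1:**
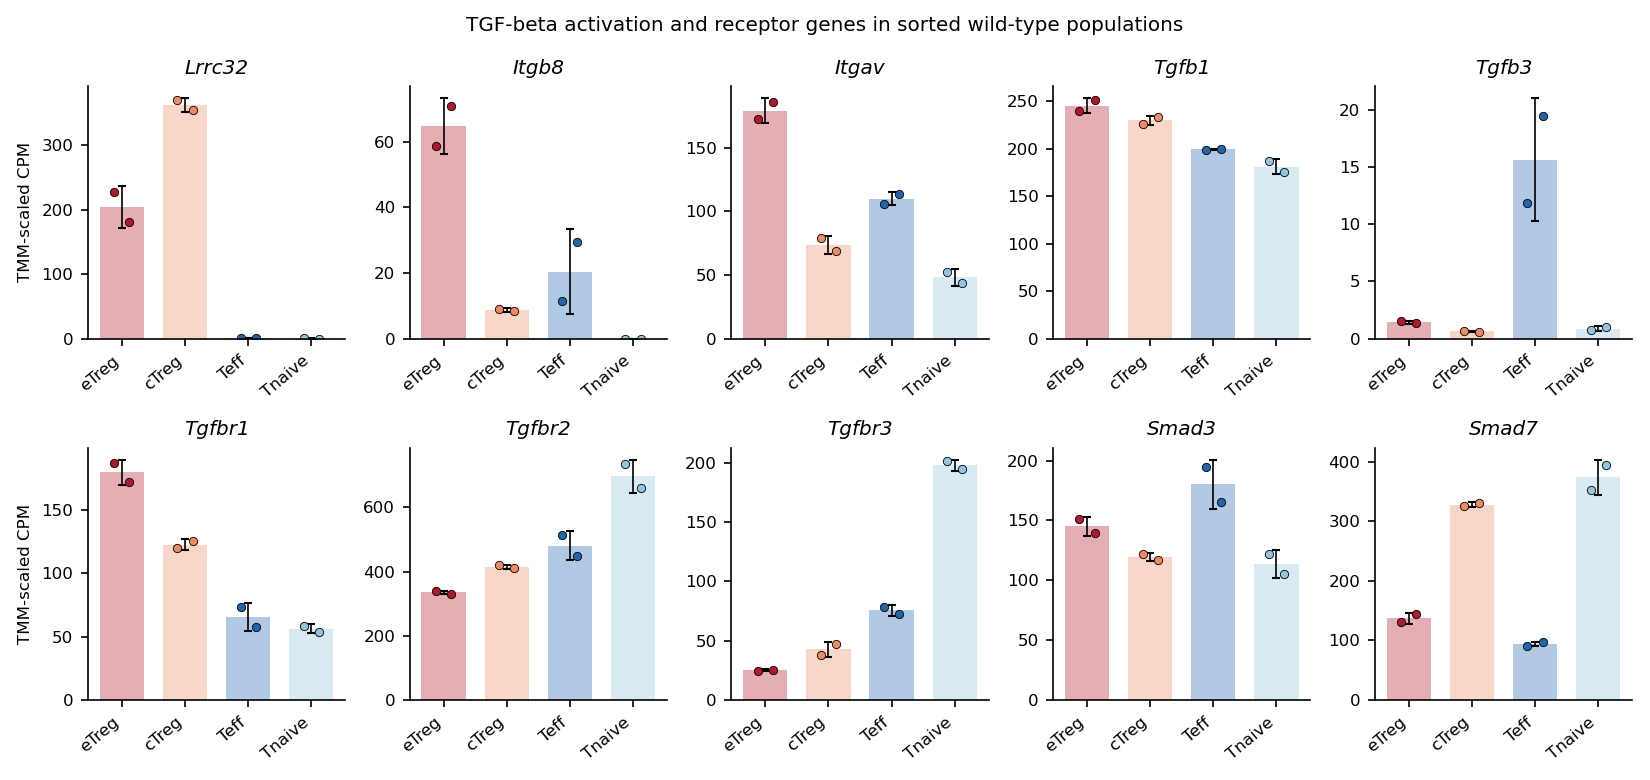
TMM-scaled CPM of the 10 genes in the sorted wild-type populations; points are libraries, bars the mean and whiskers the SD (n = 2). Lrrc32 is high in eTreg and cTreg, the integrin chains are highest in eTreg, Tgfb3 is highest in Teff (11.8 and 19.4 CPM) and Tgfbr2 and Tgfbr3 are highest in Tnaive.

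In eTreg against cTreg, Itgb8 and Itgav rose while Lrrc32, Tgfbr3 and Smad7 fell. That is 2 of 10 genes higher, near the background of 18.8%, and 3 lower (12.3%). The rise was not particular to these integrin chains. Outside the 10 genes, the chains Itgb1 (log2 2.91), Itgae (4.51) and Itgb5 (7.37, from 0.047 CPM in cTreg) were called higher, and Itgb3 (-0.97) was called lower. Itgb8 had 58.8 and 70.8 CPM in eTreg, against 9.03 and 8.32 CPM in cTreg (log2 2.90 ± 0.35, adjusted p = 4.5e-06). Itgav had 172 and 186 CPM in eTreg, against 78.8 and 68.7 CPM in cTreg (1.28 ± 0.16, adjusted p = 3.9e-06). The groups were well separated for both chains, and eTreg held the highest mean of each among all 13 groups. Of 10 tested stromal and endothelial markers, 4 were called higher in eTreg than in cTreg and 1 lower. Of 15 tested myeloid and dendritic markers, 3 were called higher and 1 lower (the same backgrounds of 18.8% and 12.3%). The part of such cells in the integrin values was not tested.

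Lrrc32 went the other way, with 227 and 181 CPM in eTreg, against 370 and 354 CPM in cTreg. Its log2 change of -0.83 ± 0.25 (adjusted p = 0.017) was lost without cTreg replicate 1 (adjusted p = 0.084), cTreg replicate 2 (0.058) or eTreg replicate 2 (0.17). The inhibitor Smad7 had 130 and 144 CPM in eTreg, against 325 and 331 CPM in cTreg (-1.26 ± 0.23, adjusted p = 3.0e-04). Tgfbr3 had 24.5 and 25.7 CPM in eTreg, against 38.3 and 47.1 CPM in cTreg (-0.76 ± 0.14, adjusted p = 0.00022). Tgfbr1 stood at the threshold, with 186 and 172 CPM in eTreg, against 120 and 125 CPM in cTreg (0.55 ± 0.21, adjusted p = 0.05, not called), and was called under DESeq2-type size factors (0.044) and with DESeq2 (0.033). Of the other 4 genes, Tgfb3 gave 1.18 ± 0.50 (adjusted p = 0.083), Smad3 0.28 ± 0.12 (0.08), Tgfbr2 -0.31 ± 0.13 (0.084) and Tgfb1 0.09 ± 0.16 (0.71), none called, although the eTreg and cTreg libraries did not overlap for any of them. With the replicate number as a block, Tgfbr1, Tgfb3, Smad3 and Tgfbr2 were called as well (adjusted p = 1.4e-06, 0.037, 0.0011 and 0.00046), which makes 9 of the 10.

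In the conventional lineage, Teff differed from Tnaive in 7 of the 10 genes, 4 higher (background 21.2%) and 3 lower (14%). Itgb8 had 11.3 and 29.5 CPM in Teff, against 0 reads in both Tnaive libraries, at least 137-fold higher by the bound (adjusted p = 2.1e-07), with Teff replicate 2 well above Teff replicate 1. Itgav had 106 and 113 CPM in Teff, against 52.7 and 43.3 CPM in Tnaive (1.19 ± 0.16, adjusted p = 9.2e-06). Tgfb3, a ligand isoform also made by inflammatory helper T cells in mice, had 11.8 and 19.4 CPM in Teff, against 0.713 and 0.999 CPM in Tnaive (4.17 ± 0.37, adjusted p = 4.9e-08). No Teff library came near the Tnaive range of these 3 genes.

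Markers of myeloid, dendritic, CD8 and NK cells mostly rose in Teff. All 18 listed myeloid and dendritic markers had reads in both Teff libraries, summing to 414 CPM in Teff replicate 1 and 206 CPM in Teff replicate 2, against 108 to 117 CPM in Tnaive, and the 9 CD8 and NK markers summed to 312 to 420 CPM in Teff and 67.0 to 71.6 CPM in Tnaive. Of 15 tested myeloid and dendritic markers, 12 were called higher than in Tnaive (background 21.2%) and 1 lower (background 14%), Itgam at -1.38 on the log2 scale. Of 8 tested CD8 and NK markers, 6 were called higher and 2 lower, Cd8b1 (-1.465) and Prf1 (-1.311). Siglech, a plasmacytoid dendritic cell gene, lay between 19.98 and 92.3 CPM in Teff. Teff replicate 2, with the lower sum of both lists, had the higher Itgb8 and the higher Tgfb3. Whether such cells were present, or T cells made these transcripts, was not tested, nor was their part in the Teff values.

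On the receptor side, Teff had lower Tgfbr2 (514 and 448 CPM in Teff, against 734 and 661 CPM in Tnaive; -0.54 ± 0.13, adjusted p = 0.0031, and 0.054 without Teff replicate 2) and lower Tgfbr3 (78.7 and 72.4 CPM, against 202 and 195 CPM; -1.39 ± 0.13, adjusted p = 7.1e-08). Smad7 had 91.2 and 96.8 CPM in Teff, against 353 and 395 CPM in Tnaive (-1.99 ± 0.24, adjusted p = 1.9e-06). Smad3 had 195 and 166 CPM in Teff, against 122 and 106 CPM in Tnaive, its single called change in the 10 comparisons between groups (0.66 ± 0.12, adjusted p = 0.00018). Tgfbr1 (0.22, 95% interval -0.24 to 0.679), Tgfb1 (0.14, -0.198 to 0.473) and Lrrc32, at or under 1.28 CPM in all 4 libraries (1.20, -0.717 to 3.12), did not pass the test.

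Between the effector populations, 4 genes were higher in eTreg than in Teff (background 8.21%) and 3 lower (7.26%). Lrrc32 was higher by 7.74 ± 0.41 on the log2 scale (adjusted p = 5.2e-10), with 0.586 and 1.28 CPM in the Teff libraries. Itgb8 (58.8 and 70.8 CPM in eTreg, against 11.3 and 29.5 CPM in Teff) was higher by 1.66 ± 0.32 (adjusted p = 0.0013, but 0.18 when eTreg and Teff were fitted alone), Itgav by 0.71 ± 0.16 (0.0033) and Tgfbr1 by 1.45 ± 0.21 (6.1e-05). Tgfb3 had 1.53 and 1.34 CPM in eTreg, against the 11.8 and 19.4 CPM of Teff (-3.44 ± 0.34, adjusted p = 7.7e-07), beside the same myeloid, dendritic, CD8 and NK signal in Teff. Tgfbr3 was lower in eTreg by 1.59 ± 0.14 on the log2 scale (adjusted p = 1.0e-07), and Tgfbr2 by 0.52 ± 0.13 (0.0087), the last lost without eTreg replicate 1 (0.052), eTreg replicate 2 (0.074) or Teff replicate 1 (0.12). Tgfb1 (0.30 ± 0.16, adjusted p = 0.25), Smad7 (0.54 ± 0.23, 0.14) and Smad3 (-0.31 ± 0.12, 0.086) were not called.

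The step into the effector state was also compared between the lineages, as eTreg over cTreg minus Teff over Tnaive. In that difference 0 of the 10 genes were called higher (background 1.57%) and 2 lower (3.85%). Tgfb3 gave -2.99 ± 0.69 (adjusted p = 0.012), a call lost without cTreg replicate 1 (0.099) or cTreg replicate 2 (0.063). Itgb8 gave a fitted -7.93 ± 1.65 (adjusted p = 0.0058), but its Tnaive libraries held 0 reads, so the size depends on the small count the fit adds, and the call was lost without Tnaive replicate 2 (0.053) or with the sorted libraries fitted alone (0.24). Itgav differed by 0.09, with a 95% interval of -0.397 to 0.572. With the replicate number as a block 5 of the 10 genes were called, the added ones being Tgfbr3 (0.63, adjusted p = 0.0092), Smad3 (-0.38, 0.0061) and Smad7 (0.73, 0.025).

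Both Foxp3 mutants had less of the anchor and of the activating integrin chain, and more of the co-receptor and of Tgfb3. In Foxp3KO Treg against control, 3 genes rose (background 2.62%) and 3 fell (6.39%); in Foxp3R397W Treg, 2 rose (2.18%) and 2 fell (3.94%). Lrrc32 had 56.6 and 69.4 CPM in Foxp3KO Treg, against 339 and 261 CPM in their controls (log2 -2.25 ± 0.26, adjusted p = 1.9e-05). In Foxp3R397W Treg it had 85.8 and 112 CPM, against 440 and 395 CPM in theirs (-2.08 ± 0.27, adjusted p = 7.6e-05). The mutants and controls did not overlap, and Lrrc32 stayed detected in every mutant library.

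Itgb8 fell further than Itgav. It had 8.77 and 7.94 CPM in Foxp3KO Treg, against 39.4 and 52.9 CPM in their controls (-2.47 ± 0.33, adjusted p = 8.3e-05), and 6.39 and 7.61 CPM in Foxp3R397W Treg, against 47.8 and 41.6 CPM in theirs (-2.67 ± 0.39, adjusted p = 0.00033). Itgav had 66.4 and 64.9 CPM in Foxp3KO Treg, against 92.2 and 98.5 CPM in their controls. That change of -0.54 ± 0.15 (adjusted p = 0.034) was lost without any single library (adjusted p = 0.10 to 0.27), and in Foxp3R397W Treg the value was -0.45 ± 0.16 (0.13, not called).

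Tgfbr3 had 74.1 and 77.5 CPM in Foxp3KO Treg, against 25.5 and 22.2 CPM in their controls (1.67 ± 0.13, adjusted p = 2.8e-07), and 88.5 and 109 CPM in Foxp3R397W Treg, against 38.8 and 36.6 CPM in theirs (1.39 ± 0.14, adjusted p = 5.1e-06). Tgfbr2 had 595 and 598 CPM in Foxp3KO Treg, against 411 and 389 CPM in their controls (0.58 ± 0.13, adjusted p = 0.0071), a call lost without Foxp3KO Treg replicate 2 (0.056) or control replicate 6 (0.087). In Foxp3R397W Treg, Tgfbr2 had 430 and 433 CPM, against 347 and 309 CPM in controls (0.40 ± 0.13, adjusted p = 0.092, not called). Both mutant groups lay wholly above their controls for both receptors.

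Tgfb3 was low but rose in both. It had 4.43 and 4.19 CPM in Foxp3KO Treg, against 1.75 and 1.99 CPM in their controls (1.20 ± 0.29, adjusted p = 0.013, and 0.073 to 0.11 without any single library), and 4.47 and 4.54 CPM in Foxp3R397W Treg, against 1.07 and 0.321 CPM in theirs (2.66 ± 0.49, adjusted p = 0.002). Some stromal and endothelial markers rose too. In each mutant 2 of 10 tested were called higher (background 2.62% in Foxp3KO Treg and 2.18% in Foxp3R397W Treg) and 0 lower. Igfbp7 was called in Foxp3KO Treg (log2 1.68) and Foxp3R397W Treg (2.26), Pecam1 in Foxp3KO Treg (0.32) and Gja1 in Foxp3R397W Treg (4.13). The 13 listed summed to 247.5 to 264 CPM in Foxp3KO Treg, against 196 to 213 CPM in their controls. They summed to 240.4 to 243 CPM in Foxp3R397W Treg, against 190 to 208.5 CPM in theirs. These sums include Pecam1, which T cells also express. All 13 had reads in both libraries of Foxp3KO Treg and in both of their controls. Col3a1, Pdgfra and Kdr were at 0 in Foxp3R397W Treg, and Col3a1, Sparc and Pdgfra were at 0 in theirs. The part of these markers in the Tgfb3 result was not tested. Tgfb1 changed by -0.19 (95% interval -0.522 to 0.141) in Foxp3KO Treg and -0.23 (-0.565 to 0.113) in Foxp3R397W Treg. Tgfbr1 gave -0.42 ± 0.20 and -0.39 ± 0.21, Smad3 -0.04 ± 0.12 and -0.20 ± 0.12, and Smad7 0.55 ± 0.23 and 0.20 ± 0.23, none of them called. The difference between the 2 mutants was called for 0 of the 10 genes in either direction (background 0.00818% each way). Among the 10 genes, 1 had an unadjusted p under 0.05 there: Tgfb3, whose Foxp3KO change was smaller by 1.46 ± 0.59 on the log2 scale.

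**Figure D2:**
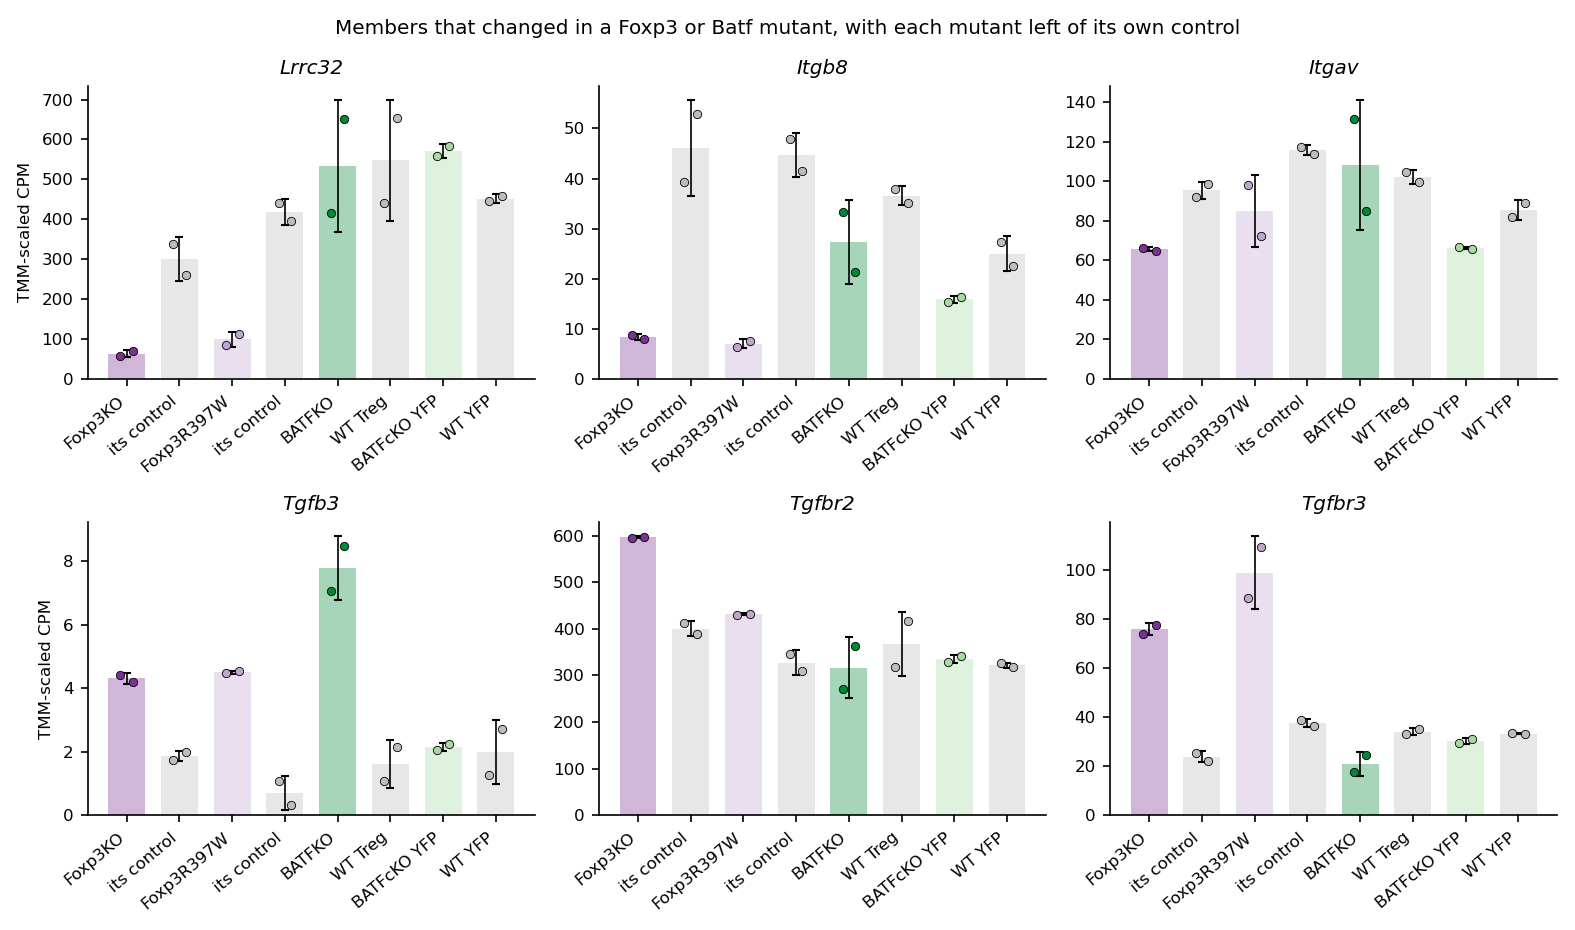
TMM-scaled CPM of the 6 genes called in a Foxp3 or Batf mutant, each mutant left of its own control; points are libraries, bars the mean and whiskers the SD (n = 2). Lrrc32 and Itgb8 are low and Tgfbr3 is high in both Foxp3 mutants, and Tgfb3 is highest in BATFKO Treg (7.08 and 8.50 CPM).

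The Foxp3 mutant sets share no library with the germline set, so the 7 genes called in WT Treg against Tconv can be followed into them. All 5 that were higher in Treg had a negative value in Foxp3KO Treg (3 called), and both that were lower had a positive one (2 called). In Foxp3R397W Treg the signs were also opposite for 5 of 5 (2 called) and 2 of 2 (1 called). Genes at large did much the same: of the 1475 genes higher in WT Treg than in Tconv, 90.2% had the opposite sign in Foxp3KO Treg and 84.2% in Foxp3R397W Treg, and of the 817 lower ones 91.3% and 83.2%.

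Loss of Batf left the anchor, the activating integrin and Tgfb1 without a called change. In BATFKO Treg against WT Treg, 1 gene rose (background 1.05%) and 1 fell (1.64%). Lrrc32 had 416 and 650 CPM in BATFKO Treg, against 441 and 655 CPM in WT Treg (log2 -0.04, 95% interval -0.58 to 0.501), and number by number the ratio was -0.08 and -0.01. Itgb8 had 33.3 and 21.3 CPM in BATFKO Treg, against 37.9 and 35.2 CPM in WT Treg (-0.41, 95% interval -1.14 to 0.312). Both libraries lay below those of WT Treg for Itgb8, whereas for Lrrc32 the libraries differed more by number than by genotype.

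The gene that rose was Tgfb3, with 7.08 and 8.50 CPM in BATFKO Treg, against 1.09 and 2.15 CPM in WT Treg (2.29 ± 0.39, adjusted p = 0.0019). It was 2.70 in the libraries numbered 1 and 1.98 in those numbered 2, and was not called when the BATFKO and WT Treg libraries were fitted alone (adjusted p = 0.33). Of the 13 stromal and endothelial markers, 7 had reads in both BATFKO Treg libraries, summing to 298 to 334.5 CPM, against 8 of 13 and 199 to 205 CPM in WT Treg; Pecam1, which T cells also express, made up 266 to 282 CPM of it, and Col3a1, Pdgfra, Pdgfrb, Cdh5 and Kdr were at 0 in both BATFKO Treg libraries. Of the 10 tested markers of that list 5 were called higher (background 1.05%) and 0 lower, namely Fn1 (6.42 to 7.16 CPM in BATFKO Treg and 0.136 to 0.826 CPM in WT Treg), Igfbp7, Lamb1, Gja1 and Pecam1, and their part in the Tgfb3 result was not tested. Tgfbr3 had 17.6 and 24.5 CPM in BATFKO Treg, against 33.0 and 35.2 CPM in WT Treg (-0.70 ± 0.15, adjusted p = 0.0099), a call lost without BATFKO Treg replicate 1 (0.14) or WT Treg replicate 2 (0.10) and in the fit of these libraries alone (0.99). The other 6 genes had 95% intervals that held 0, with values of 0.08 for Itgav, 0.03 for Tgfb1, -0.18 for Tgfbr1, -0.21 for Tgfbr2, -0.05 for Smad3 and -0.22 for Smad7, and their libraries overlapped.

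With Batf removed by the Foxp3-driven Cre, none of the 10 genes passed the test (edgeR 0 of 10 in either direction and DESeq2 0 of 10, against backgrounds of 0.319% higher and 1.72% lower), and 2 had an unadjusted p under 0.05. Those were Itgav, with 66.5 and 65.9 CPM in BATFcKO Treg YFP, against 81.7 and 89.0 CPM in WT Treg YFP (-0.37 ± 0.16), and Tgfbr1, with 96.8 and 97.6 CPM, against 129 and 144 CPM (-0.49 ± 0.21). Tgfbr1 was called when the YFP libraries were fitted alone (adjusted p = 0.023) and with the replicate number as a block (0.00052). Itgb8 had 15.3 and 16.4 CPM in BATFcKO Treg YFP, against 27.4 and 22.5 CPM in WT Treg YFP (-0.66, 95% interval -1.44 to 0.132). All 3 genes lay lower in both BATFcKO libraries than in either control. Tgfb3 had 2.07 and 2.25 CPM in BATFcKO Treg YFP, against 1.29 and 2.72 CPM in WT Treg YFP, and the groups overlapped. The other values were 0.34 for Lrrc32, 0.03 for Tgfb1, 0.06 for Tgfbr2, -0.14 for Tgfbr3, 0.02 for Smad3 and 0.36 for Smad7, each with a 95% interval that held 0. The difference between the germline and conditional effects was called for 0 of the 10 genes (background 0% in both directions, with 633 genes at an unadjusted p under 0.05 and 11 called by DESeq2); for Tgfb3 it was 2.16 ± 0.61 (adjusted p = 0.44).

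**Figure D3:**
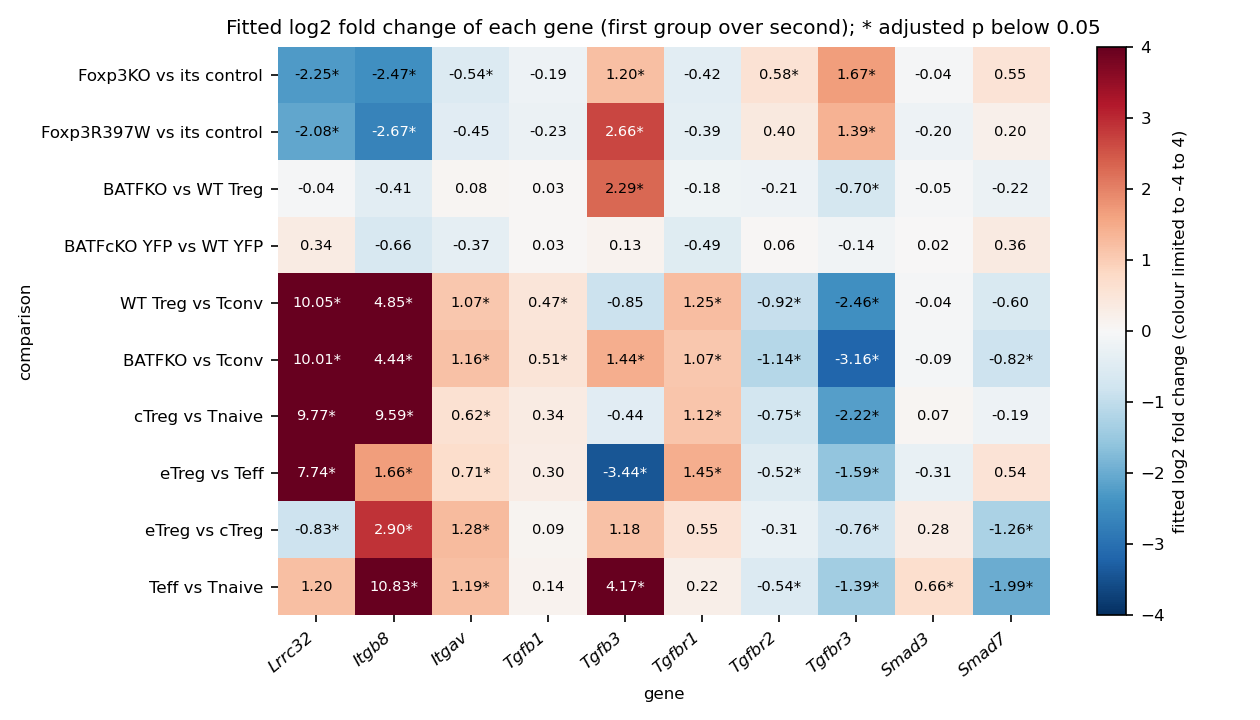
Fitted log2 fold change of each gene (columns) in 10 comparisons between groups (rows, first group over second); colour is limited to 4 in size and asterisks mark an adjusted p below 0.05. Itgb8 values against Tnaive are not bounds, because both Tnaive libraries hold 0 reads; Lrrc32, Itgb8 and Tgfbr3 carry most of the strong colours, and Smad3 and Tgfb1 the fewest.

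Partner genes can be set against each other per kilobase of exon. The Itgb8 level was 35.03% ± 2.67 of the Itgav level in eTreg and 11.5% ± 0.458 in cTreg, and 10.4% and 25.3% in the Teff libraries (SD, n = 2). In Foxp3KO Treg it was 12.4% ± 0.670, against 46.9% ± 7.56 in their controls, and in Foxp3R397W Treg 8.30% ± 2.78, against 37.5% ± 2.86. These are transcript ratios within a library, and Itgav serves other integrins too.

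Among the receptors, Tgfbr1 stood at 67.0% ± 2.66 of Tgfbr2 in eTreg, 37.0% ± 1.85 in cTreg, 17.0% ± 1.26 in Teff and 10.1% ± 0.159 in Tnaive, and the libraries of these 4 groups did not overlap. It was 24.4% ± 0.525 in Foxp3KO Treg, against 48.6% ± 3.57 in controls, and 40.8% ± 1.80 in Foxp3R397W Treg, against 70.6% ± 4.44. In the germline set the 2 numbers split the ratio, with 77.2% and 38.3% in BATFKO Treg and 75.7% and 36.6% in WT Treg. Tgfbr3 ran in the opposite order, at 9.37% ± 0.493 of Tgfbr2 in eTreg, 12.9% ± 2.08 in cTreg, 19.7% ± 0.751 in Teff and 35.6% ± 1.78 in Tnaive.

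**Figure D4:**
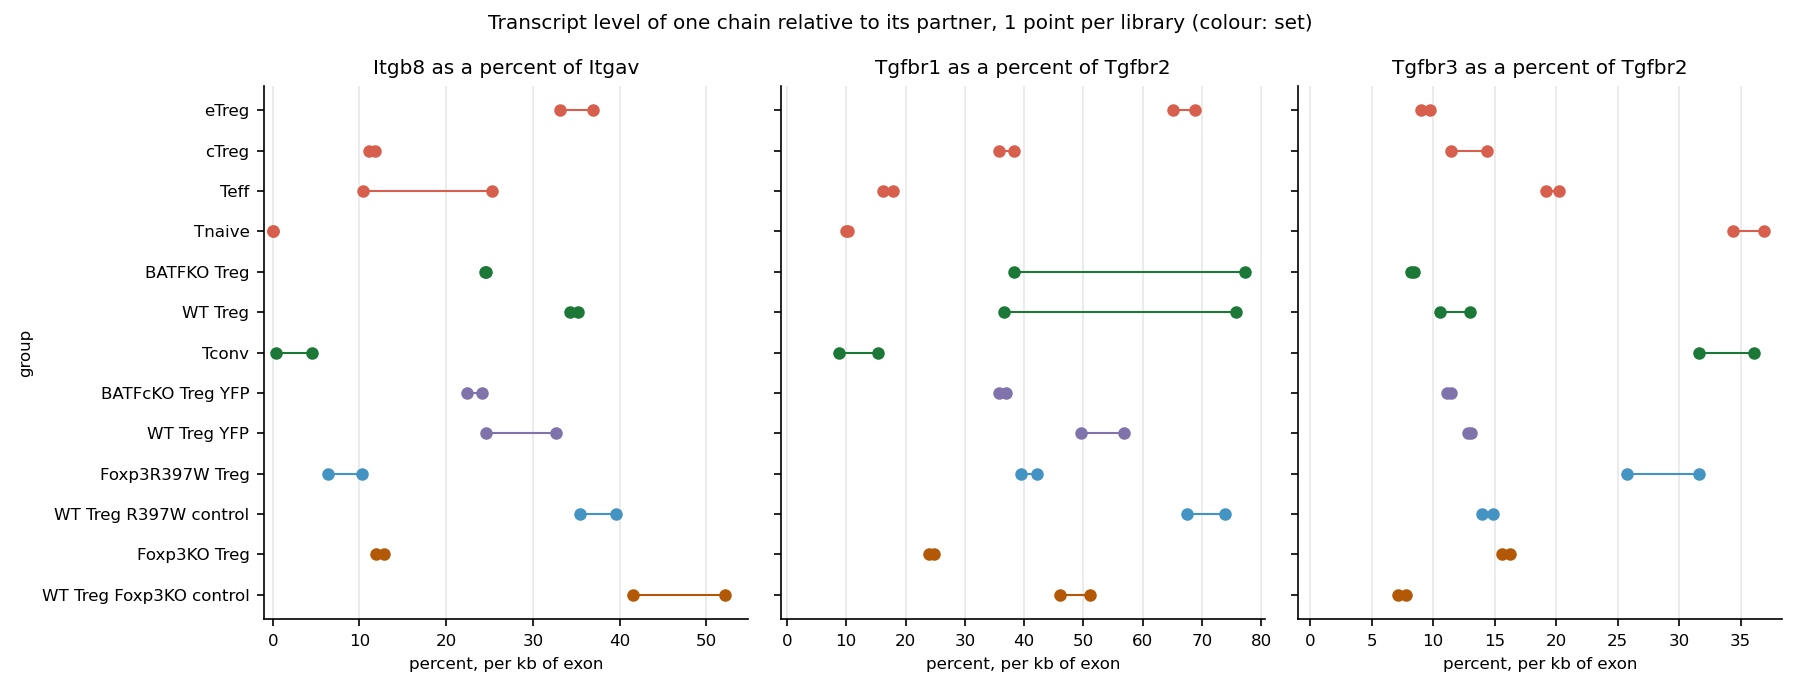
Level per kb of exon of Itgb8 relative to Itgav, and of Tgfbr1 and Tgfbr3 relative to Tgfbr2, in percent; each point is a library, lines join the libraries of a group and colours mark the sorting set. Tgfbr1 falls and Tgfbr3 rises relative to Tgfbr2 in the order eTreg, cTreg, Teff, Tnaive.

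Across the 13 groups, each centred on the mean of its own set, Tgfbr2 and Tgfbr3 varied together (Pearson r = 0.995 of group mean log2 CPM), as did Itgav and Itgb8 (0.961) and Lrrc32 and Tgfb1 (0.95), while Tgfbr3 and Tgfb1 ran against each other (-0.981). These are descriptions over 13 points that share sets and libraries. Outside the 10 genes, the closest patterns among 10175 genes were Colq, Adamts6 and Trim59 for Lrrc32 (0.991 each), Bcl2l1 (0.992) and Il10ra (0.991) for Itgb8, Naip5 (0.996) for Itgav and Tnfrsf18 (0.993) for Tgfb1. Fam101b came first for both Tgfbr2 (0.993) and Tgfbr3 (0.992), Inpp5f for Tgfbr1 (0.984), Itga1 for Smad3 (0.984), Arv1 for Smad7 (0.993) and Arhgap33 for Tgfb3 (0.95).

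A list of 110 other genes of the TGF-beta pathway, of which 83 were tested, gives the setting. It was chosen with earlier results of these data known. Its shares beside the background are therefore descriptions and not a test of the pathway. Foxp3 is on this list as a target. It is counted among the genes that rose in each comparison of Treg with conventional cells, where the gates select on its reporter. In WT Treg against Tconv 27 rose (32.5%, against a background of 12.1% of all tested genes) and 14 fell (16.9%, against 6.68%), with a median log2 change of 0.227. In eTreg against cTreg 35 rose (42.2%, against 18.8%) and 18 fell (21.7%, against 12.3%), with a median of 0.0475. In Teff against Tnaive 37 rose (44.6%, against 21.2%) and 20 fell (24.1%, against 14%), with a median of 0.339. In cTreg against Tnaive 24 rose (28.9%, against 7.91%) and 6 fell (7.23%, against 4.29%), with a median of 0.162, and in eTreg against Teff 19 rose (22.9%, against 8.21%) and 16 fell (19.3%, against 7.26%), with a median of 0.0702. The calls were uneven between roles. In WT Treg against Tconv, 13 of 25 targets rose and 4 fell, and 5 of 29 signal regulators rose and 3 fell. Of 12 storage and activation genes 5 rose and 1 fell, and of 11 receptors and co-receptors 3 rose and 3 fell. Of 4 Smads 0 rose and 3 fell, and of 2 ligands 1 rose and 0 fell. Among receptors and co-receptors, Nrp1, a surface protein that can bind latent TGF-beta, had 392 ± 2.31 CPM in WT Treg and 24.8 ± 5.57 CPM in Tconv (log2 3.98 ± 0.20, adjusted p = 8.9e-11). Acvrl1, a type I receptor of the family, had 7.23 ± 1.12 CPM in WT Treg and 49.0 ± 8.56 CPM in Tconv (-2.75 ± 0.31, adjusted p = 2.9e-06). The integrin chain Itgb3 had 96.7 ± 7.81 CPM in WT Treg and 211 ± 6.56 CPM in Tconv (-1.13 ± 0.16, adjusted p = 3.3e-05), opposite to Itgb8.

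In the mutants, more of these 83 genes were called lower than higher, which is no test of the pathway as a whole. Targets made up 5 of the 11 falls in Foxp3KO Treg and 7 of the 13 in Foxp3R397W Treg. They made up 5 of the 8 falls in BATFKO Treg and 4 of the 6 in BATFcKO Treg YFP. Of the 4 Smads, 0 were called in each mutant. Foxp3, the mutated gene, is itself counted among those that fell in Foxp3KO Treg (log2 -1.60 ± 0.15). In Foxp3KO Treg 4 rose (4.82%, against a background of 2.62%) and 11 fell (13.3%, against 6.39%), while the median was 0.0591, opposite in sign to the balance of calls. In Foxp3R397W Treg 5 rose (6.02%, against 2.18%) and 13 fell (15.7%, against 3.94%), with a median of -0.0398. In BATFKO Treg 0 rose (background 1.05%) and 8 fell (9.64%, against 1.64%), with a median of -0.113, and in BATFcKO Treg YFP 0 rose (background 0.319%) and 6 fell (7.23%, against 1.72%), with a median of -0.0153. Itgae, the alpha chain of the CD103 integrin and a well known TGF-beta target in T cells, fell in all 4 mutants: 15.3 ± 0.781 CPM in Foxp3KO Treg and 124 ± 2.53 CPM in controls (-3.02 ± 0.19), 13.4 ± 1.58 CPM in Foxp3R397W Treg and 130 ± 6.46 CPM in controls (-3.28 ± 0.21), 18.5 ± 1.83 CPM in BATFKO Treg and 142 ± 7.01 CPM in WT Treg (-2.94 ± 0.20), and 27.9 ± 4.16 CPM in BATFcKO Treg YFP and 155 ± 19.6 CPM in WT Treg YFP (-2.47 ± 0.20). The integrin chain Itgb1 fell in the same 4, by 2.98 ± 0.15 on the log2 scale in BATFKO Treg and 2.86 ± 0.15 in BATFcKO Treg YFP, and by 1.42 ± 0.13 in Foxp3KO Treg and 1.73 ± 0.14 in Foxp3R397W Treg. Nrp1 also fell in all 4, with 159 ± 28.2 CPM in BATFKO Treg and 392 ± 2.31 CPM in WT Treg (-1.31 ± 0.18, adjusted p = 0.00021). Among the genes that rose, Smurf2, a ubiquitin ligase that acts on Smads and TGF-beta receptors, gave 0.81 ± 0.11 in Foxp3KO Treg and 0.47 ± 0.12 in Foxp3R397W Treg (adjusted p = 0.00012 and 0.022), and Itgb3 gave 0.55 ± 0.15 and 0.58 ± 0.16 (0.027 and 0.032). S1pr1, the sphingosine-phosphate receptor of lymphocyte egress, rose in Foxp3KO Treg (0.72 ± 0.12, adjusted p = 0.00067), as did the co-receptor Eng (2.12 ± 0.38, 0.0012), and the targets Ahr (0.73 ± 0.18, 0.016) and Id2 (0.82 ± 0.21, 0.021) rose in Foxp3R397W Treg. In the Batf mutants these losses stood beside an integrin chain Itgb8 and an anchor Lrrc32 that did not pass the test.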

How the data were processed

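RNA was measured in 26 libraries of freshly sorted T cells, made per the labels' protocols with Isogen, poly(A) selection and a directional Ultra or an UltraII kit. Which kit served which library, the strand setting, the counter and the annotation are not given in the sources used here. Per the submitters' processing notes, the authors used STAR 2.6.1c and the mm10 build. The deposited values are raw gene counts in 1 table, of which 26 columns matched a sample and 4 columns of per-sample values were not used.

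Genes with enough reads by edgeR's filterByExpr (minimum count 10) were kept, which left 12227 of 24411. Counts were scaled by TMM and fitted with edgeR 4.0.16 (robust quasi-likelihood, R 4.3.3), with 1 coefficient for each of the 13 groups over all 26 libraries. P-values were Benjamini-Hochberg adjusted over all tested genes with a threshold of 0.05. The SE of a log2 fold change is from the same fit. Tests on simulated data preceded the fits. The alternatives were DESeq2-type size factors, DESeq2 1.42.0, no expression filter, the compared libraries only, the replicate number as a block and each library left out in turn. Exon lengths came from GENCODE M21 and promoter windows from RefSeq. The antisense models Gm13684 (Itgav) and Gm37804 and Gm48008 (Tgfb3) and the same-strand Gm43422 (Tgfbr3) overlap exons of these genes and are not counted separately in the table, so those reads cannot be told apart.

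The 10 members, the pathway list and the marker lists were chosen with earlier results of these data known. All 10 members were tested, and could be named, in every comparison. From the pathway list, up to 4 called genes with the smallest p in each direction could be named, and the 3 genes most like each member were taken by Pearson correlation over 13 set-centred group means of log2(CPM + 0.5), among genes reaching a mean of 5 CPM in a group.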

Additional observations from a re-analysis of the deposited data

Results flagged for a closer look

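The change that accompanied the effector state differed between the Treg and the conventional lineage for 2 of the 10 genes, by a test of the difference itself. For Tgfb3 the log2 change of eTreg over cTreg minus that of Teff over Tnaive was -2.991 (SE 0.69, edgeR adjusted p = 0.012, but 0.099 without cTreg replicate 1 and 0.063 without cTreg replicate 2), with 1.53 and 1.34 CPM in eTreg, 0.658 and 0.594 CPM in cTreg, 11.8 and 19.4 CPM in Teff and 0.713 and 0.999 CPM in Tnaive. For Itgb8 the fitted difference was -7.931 (SE 1.65, adjusted p = 0.0058), with an adjusted p of 0.053 without Tnaive replicate 2 and 0.24 with the sorted libraries fitted alone, and its size depends on Tnaive libraries with 0 reads. Listed markers of myeloid, dendritic, CD8 and NK cells mostly rose in Teff. The 18 myeloid and dendritic markers summed to 414 and 206 CPM in Teff, against 108 to 117 CPM in Tnaive. The 9 CD8 and NK markers summed to 312 to 420 CPM in Teff, against 67.0 to 71.6 CPM in Tnaive. Itgam, Cd8b1 and Prf1 of these lists were called lower in Teff. Whether such cells were present, or T cells made these transcripts, was not tested, nor was their part in both results.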

How the results depend on the processing

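Of 1260 alternative values of the 10 genes (130 results under each setting that could be fitted), 0 reversed in direction among called values, 45 lost a call and 40 gained one; values called in neither fit were not judged by direction. Genes called over the whole table moved with the set of libraries that share the spread and with the block. Fitted on the compared libraries only, the counts were 2 in BATFKO Treg against WT Treg, 519 in WT Treg against Tconv, 542 in BATFKO Treg against Tconv, 378 in BATFcKO Treg YFP, 1416 in Foxp3R397W Treg, 4121 in Foxp3KO Treg, 5851 in eTreg against cTreg, 2933 in cTreg against Tnaive, 1174 for the effector difference and 7 for the difference of the Foxp3 mutants. The 10 genes then gave 0, 4, 3, 1 and 7 calls in the first 5 of these and 8 in eTreg against cTreg. These fits estimate the spread from fewer libraries, and the cause was not tested further.

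The replicate block was not part of the main fit because nothing in the labels says that equal numbers mark a shared animal or batch. Deviations of same-numbered libraries correlated at 0.731 to 0.813 in the germline set, 0.451 in the YFP set and 0.153 to 0.357 in the sorted set. With the block, the calls over all genes were 1036 in BATFKO Treg against WT Treg, 4168 in WT Treg against Tconv, 4695 in BATFKO Treg against Tconv, 1115 in BATFcKO Treg YFP, 5973 in eTreg against cTreg, 2897 in cTreg against Tnaive, 3609 in eTreg against Teff, 6486 in Teff against Tnaive, 1641 for the effector difference and 139 for the difference of the Batf mutants. The 10 genes gave 1 call in BATFcKO Treg YFP (Tgfbr1), 9 in eTreg against cTreg, 5 for the effector difference and 1 for the Batf difference. No call of the 10 genes was lost with the block. The Foxp3 mutants and controls share no numbers, so no block could be fitted there. Without a filter the Batf difference had 6 called genes and with DESeq2 11, and DESeq2 called 4 of the 10 genes for the effector difference.

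Leaving out each library in turn, the called genes ranged between 176 and 355 in BATFKO Treg against WT Treg, 73 and 160 in BATFcKO Treg YFP, 329 and 412 in Foxp3R397W Treg, 417 and 693 in Foxp3KO Treg, 2679 and 3017 in eTreg against cTreg, 993 and 1043 in cTreg against Tnaive, 1168 and 1467 in eTreg against Teff, 431 and 602 for the effector difference, and 0 and 23 for the Batf difference, with 0 throughout for the Foxp3 difference. The calls among the 10 genes ranged between 1 and 2 in BATFKO Treg, 3 and 4 in Foxp3KO Treg, and 1 and 2 for the effector difference. With a library left out, the lone one is assumed to vary like the other groups. Low counts limit Tgfb3 (under 20 CPM in every library), Itgb8 in Tnaive and Tconv, and Lrrc32 in the hCD2- conventional libraries.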
